A study of Homo sapiens with 4 samples.

Results

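Antisense peaks are those that the authors' annotation placed on the strand opposite to a gene. They were taken from the 2 peak lists of an iRIP-seq experiment in Jurkat, an established human cell line of T-cell acute lymphoblastic leukemia (T-ALL), in which RNA crosslinked to IGF2BP2 by UV light was immunoprecipitated with anti-IGF2BP2 and sequenced. All libraries came from untreated cells of this single line, and nothing in the labels says whether the 2 IGF2BP2_IP libraries, replicates 1 and 2, came from separate cultures. The 2 IGF2BP2_input libraries were not analysed here, so binding cannot be set against the RNA present in the cells. Every peak whose largest region share was antisense was kept, which gave 29034 of 145715 peaks in replicate 1 and 23147 of 137934 peaks in replicate 2. In each of these peaks the antisense share was the whole peak, and each carried the identifier of the gene on the other strand, called its host below. Sense peaks were listed in each replicate for 10 of 11 T cell marker genes with a named identifier, 155 and 186 peaks of which BCL11B held 65 and 86, for 1 and 3 of the 3 B cell markers that could be named (5 and 7 peaks) and for both myeloid markers (2 and 3 peaks), beside 12485 and 11968 of all 17007 named identifiers.

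IGF2BP2 is an RNA-binding protein that recognises N6-methyladenosine, often in a GGAC context, and stabilises many of the mRNAs it binds. Antisense RNA arises where the strand opposite to a gene is transcribed, for example from a promoter that fires in both directions, from an independent long noncoding RNA gene, or from readthrough of a neighbour. Such RNA is usually scarce, and in sequencing data a small share of reads of abundant RNAs can also be assigned to the wrong strand, so the host and the sense peaks are given beside each result.

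Gene starts held 96 antisense peaks in each replicate, counted where they lay wholly inside the promoter windows of RefSeq, which run from 250 bases before to 50 bases after a start. These were 0.331% and 0.415% of the antisense peaks, beside 0.617% and 0.718% of the other peaks, with no test of the difference. Of these, 32 and 33 were on the strand of the gene that starts there and 67 and 66 on the opposite one, with some counted in both where windows face each other. At 4 of these starts the antisense peaks of the replicates overlapped, and their sequences are shown, in capitals for the peak bases, as the places where a signal against a host returned next to a start. Coordinates are of GRCh38.p14, and positions are counted from 0 at the first base of the gene named, read 5′ to 3′ on the strand of the peak.
SMARCA5, chr4:143513626-143513725, plus strand: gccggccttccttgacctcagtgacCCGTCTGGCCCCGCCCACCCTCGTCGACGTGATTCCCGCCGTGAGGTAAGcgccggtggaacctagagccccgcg
SRRM2-AS1, chr16:2752676-2752775, minus strand: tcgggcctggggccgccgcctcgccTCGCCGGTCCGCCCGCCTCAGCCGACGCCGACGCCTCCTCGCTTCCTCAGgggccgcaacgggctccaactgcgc
DHPS, chr19:12681341-12681425, plus strand: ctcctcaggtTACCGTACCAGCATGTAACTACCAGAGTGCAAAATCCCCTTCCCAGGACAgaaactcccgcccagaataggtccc
ADA, chr20:44651826-44651925, plus strand: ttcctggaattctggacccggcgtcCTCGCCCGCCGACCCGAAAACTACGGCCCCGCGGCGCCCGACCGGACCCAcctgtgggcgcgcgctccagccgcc

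The SMARCA5 peak, beside the gene of an ISWI chromatin remodeller, had 5 tags in replicate 1 and 9 in replicate 2 and ran from position -51 to -2. It lay on the strand of SMARCA5 and was antisense to SMARCA5-AS1. The peak beside SRRM2-AS1 had 5 and 7.5 tags and was antisense to SRRM2, which encodes a large protein of nuclear speckles. It lay 150 to 101 bases before the start of SRRM2-AS1, with the bases up to -51 included in replicate 2, and faced a sense peak of SRRM2 at the same place in both replicates. At DHPS, the gene of the enzyme that begins hypusine formation, the peak lay on the strand opposite to the gene. Its host, ENSG00000095059.16, got no name here, which does not make it a gene other than DHPS. The peak had 4 and 6 tags and crossed the start, from -30 to 19, with 50 more bases upstream in replicate 1. In ADA, adenosine deaminase, whose loss depletes T cells, it had 4 and 5 tags and lay at -201 to -152. The motif GGAC is held by the DHPS and ADA peaks and not by the SMARCA5 and SRRM2-AS1 peaks on the strand of the peak. Over all antisense peaks inside promoter windows, 14.6% in replicate 1 and 19.8% in replicate 2 held GGAC on their own strand, beside 21.1% and 23.7% of the other peaks there, which can be longer, and 17.1% of all 50-base tiles of the 35116 windows.

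Antisense peaks were common among the lowest peaks and rare among the high ones. In replicate 1 they made up 19.9% of the list (19.7 to 20.1, 95% Wilson interval), and in replicate 2 they made up 16.8% (16.6 to 17.0), a mean of 18.4% ± 2.22 (SD, n = 2). The height of a peak is its signal in tags, and no peak below 4 tags was listed for replicate 1 or below 5 for replicate 2. This lowest height was that of 84.3% and 78.5% of the antisense peaks, against 74.3% and 62.6% of all peaks. Only 41 and 93 antisense peaks reached 10 tags.

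Among peaks of the lowest height, 22.5% in replicate 1 and 20.9% in replicate 2 were antisense. The share fell with height to 1.67% (1.23 to 2.26) and 1.13% (0.922 to 1.38) of peaks of at least 10 tags. It was then larger again among the very highest peaks, with 4 of 41 peaks of at least 40 tags in replicate 1 (9.76%, 3.86 to 22.5) and 8 of 119 in replicate 2 (6.72%, 3.45 to 12.7). Over peaks of at least 5 tags, the lowest height both lists hold, the share was 12.3% in replicate 1 and 16.8% in replicate 2, a difference of 4.43 percentage points (4.04 to 4.82, two-sided Fisher's exact test p = 1.85e-99), and at 10 tags or more the difference, replicate 2 minus replicate 1, was -0.541 points (-1.16 to -0.0372, Fisher's exact test p = 0.0386). These tests compare 2 libraries whose numbers of reads are unknown and not 2 conditions.

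The peaks were short and spread over both strands and along the hosts. A length of 1 bin, listed as 51 nt, was that of 99.5% of antisense peaks in replicate 1 and 99.1% in replicate 2, and the longest had 251 and 351 nt. The plus strand held 49.7% and 49.2% of them. Within named hosts of at least 10 kb, split into 5 equal stretches from start to end, each stretch held between 19.5% and 20.5% of the antisense peaks in both replicates, whereas the share of intron peaks was 21.9% and 22.7% in the first stretch and 16.6% and 16.5% in the last. The first 1000 nt of these hosts held 1.39% and 1.41% of the antisense peaks. By chromosome, antisense peaks were between 6.90% of the list on Y and 23.8% on 3 in replicate 1, and between 1.82% on Y and 21.3% on 8 in replicate 2. Chromosome 21 held 1.44% and 1.86% of all antisense peaks but 22 of the 41 and 35 of the 93 with at least 10 tags, of which 21 and 28 lay in ribosomal RNA units.

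Antisense peaks of one replicate were seldom found in the other. On the same strand, 190 antisense peaks of replicate 1 (0.654%, 0.568 to 0.754) and 190 of replicate 2 (0.821%, 0.712 to 0.946) were overlapped by any peak of the other list, beside 9.19% of all peaks in replicate 1 and 9.62% in replicate 2. Every partner was itself antisense, which follows largely from the annotation, because the class depends on position and strand. At equal height the share was below that of intron peaks in all 10 height classes. In replicate 1, 81 of 24508 antisense peaks of 4 tags recurred (0.331%) against 3.25% of intron peaks, a difference of -2.92 points (-3.12 to -2.73), and in replicate 2, 73 of 18229 peaks of 5 tags recurred (0.40%) against 2.52%, a difference of -2.12 points (-2.31 to -1.92). At 10 tags or more, 17 of 41 recurred in replicate 1 (41.5%) against 71.6% of intron peaks, with 64.4% over all peaks of that height, and 31 of 93 in replicate 2 (33.3%) against 53.1%, with 54% over all peaks.

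Two-sided Fisher's exact tests gave Benjamini-Hochberg adjusted p values between 7.84e-173 and 0.000301 for the 10 comparisons with intron peaks, adjusted over 20 tests with those against intergenic peaks. Against intergenic peaks the direction turned with height. Antisense peaks recurred less often at the lower heights, for instance 0.331% against 1.00% at 4 tags in replicate 1, and more often from 10 tags, by 22.4 points in replicate 1 (8.11 to 38.0, Fisher's exact test adjusted p = 0.00223) and by 19.2 points in replicate 2 (10.2 to 29.4, adjusted p = 1.36e-05). At 8 to less than 10 tags the differences of 9.59 points (-1.92 to 24.0) and 0.668 points (-2.92 to 5.18) did not pass the test. Neighbouring peaks share reads and regions, so these p values treat as separate what is in part one signal.

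A sense peak at the same position was also uncommon. It was present for 410 antisense peaks in replicate 1 (1.41%, 1.28 to 1.55) and 376 in replicate 2 (1.62%, 1.47 to 1.80), beside 1.68% and 2.89% of all peaks with a peak on the other strand. The partner was of the same identifier for 392 and 362 of them, and it lay in an intron in 264 of 410 pairs and 256 of 378 pairs, and in coding sequence in 91 and 75. The sense peak was the higher one in 168 pairs and the lower one in 61 in replicate 1, with 181 equal. In replicate 2 it was higher in 203, lower in 77 and equal in 98.

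At equal height the share with an opposite-strand peak lay between those of intron and intergenic peaks. At 10 tags or more it was 7 of 41 in replicate 1 (17.1%) against 2.14% of intron peaks and 65.3% of intergenic peaks, with 12.6% over all peaks of that height. In replicate 2 it was 28 of 93 (30.1%) against 2.79% and 64.5%, with 12.4% over all peaks. The antisense share exceeded the intron share in all 10 classes, by 0.627 points (0.476 to 0.786) at 4 tags in replicate 1 and by 27.3 points (18.9 to 37.3) from 10 tags in replicate 2, with Fisher's exact test adjusted p values between 2.43e-18 and 0.0112. It was below the intergenic share in all 10, with Fisher's exact test adjusted p values of at most 7.98e-06. An antisense peak that faces an intron peak counts in both the antisense and the intron share. Such pairs numbered 264 and 256, beside 319 and 298 intron peaks with any opposite-strand peak. The lists hold fewer antisense than intron peaks, 29034 against 51382 and 23147 against 48205. So the tests against intron peaks cannot tell a property of antisense peaks from the sizes of the lists. No antisense peak faced another antisense peak, with 0 of 410 and 0 of 378 pairs. An intergenic peak can face another intergenic peak, and then both count in the intergenic share. So the tests against intergenic peaks cannot tell a property of antisense peaks from this way of counting.

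The highest antisense peaks lay opposite ribosomal RNA. Most peaks of at least 20 tags were on the minus strand of the 45S units RNA45SN1 (chr21:8433222-8446572), RNA45SN2 (chr21:8205988-8219302) and RNA45SN3 (chr21:8389035-8402343), with 9 of 9 in replicate 1 and 14 of 22 in replicate 2. A 45S unit is transcribed as 1 precursor that is cut into 18S, 5.8S and 28S ribosomal RNA, the bulk of the RNA of a cell. Most hosts there are 2 identifiers without a name, ENSG00000280441.3 and ENSG00000278996.1. In the authors' annotation all sense peaks of the units are intronic, and some peaks on the minus strand carry the class of noncoding exons and are not counted among the antisense ones. The copies are nearly identical and only uniquely mapped reads were kept, so which copy a peak belongs to is uncertain.

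Each replicate had 50 antisense peaks in the 3 units, beside 45 sense peaks in replicate 1 and 49 in replicate 2. The median height was 8 tags on both strands in replicate 1, and 11.8 antisense against 10 sense in replicate 2. The 28S part held 40 of 50 antisense peaks in replicate 1 and 29 of 50 in replicate 2, against 20 of 45 and 17 of 49 sense peaks, and the 5.8S part held 1 and 2 antisense peaks and no sense peak in either list. Of the antisense peaks, 17 and 16 were overlapped in the other replicate, and 10 and 15 had a sense peak at the same position.

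The 5 highest antisense peaks of replicate 1 were all in these units, with 91, 61 and 55 tags in RNA45SN2 and 50 and 32 in RNA45SN1. None of the 5 was overlapped in replicate 2. In replicate 2 the highest had 86 tags opposite ESPNP, a pseudogene of the actin-bundling protein espin, followed by 66.5 and 64 tags in RNA45SN3, 57 in RNA45SN2 and 55 in RNA45SN1, and of these 5 only the one of 66.5 tags was overlapped in replicate 1. So the group returned in both libraries, while most of these highest peaks had no overlap within the same copy. Overlap was counted by genome position, so a peak at the same place of another copy did not count. Whether the summits returned in another copy was not tested.

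Without the 45S units, antisense peaks of at least 10 tags still differed from intron peaks of that height. In replicate 1, 6 of 20 recurred in the other list (30%) against 73.4% of intron peaks, and in replicate 2, 20 of 65 (30.8%) against 53.5%. The differences were -43.4 points (-59.3 to -21.2) and -22.7 points (-32.8 to -10.4), with adjusted p of 0.000148 and 0.000462 by Fisher's exact test over 8 comparisons. Against intergenic peaks the difference in replicate 1 did not pass Fisher's exact test, at 30% against 19.0% (-5.03 to 33.2 points, adjusted p = 0.247), and in replicate 2 it was 16.6 points (6.54 to 28.8, adjusted p = 0.00110). So the call against intergenic peaks in replicate 1 was lost without the ribosomal units.

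Outside the ribosomal class, most antisense peaks of at least 10 tags lay in protein-coding genes. They were 13 of the 41 in replicate 1 and 40 of the 93 in replicate 2, against 3 and 4 that faced short structured RNAs. Over antisense peaks of any height, protein-coding genes held 71.6% in replicate 1 and 71.4% in replicate 2. So lying in such genes was not particular to the high peaks. In protein-coding genes the highest peak of replicate 1 had 17 tags opposite SLCO5A1, of a family of membrane transporters. The highest of replicate 2 had 40 tags opposite SULF1, an extracellular sulfatase, and 33.5 opposite EAPP, an E2F-associated phosphoprotein. None of them was overlapped in the other replicate. The SLCO5A1 and EAPP peaks each faced a sense peak of 37 tags at the same position, and the SULF1 peak faced none. All genes of this paragraph were named after their values were seen. The short RNAs include in replicate 1 RN7SL2, the RNA of the signal recognition particle (19 tags), RNVU1-18, a variant U1 small nuclear RNA (18 tags), and RN7SK, which holds back transcription elongation (14.7 tags). In replicate 2 they include RNU1-27P, a U1 pseudogene (49 tags), SNORD3A, the U3 small nucleolar RNA (24 tags), and RMRP, the RNA of RNase MRP (17 tags), which had 6 tags at that place in replicate 1 and a further shared position with 7 and 8 tags. Together such short RNAs and their pseudogenes held 29 antisense peaks in replicate 1 and 28 in replicate 2, of which 4 in each were overlapped by the other replicate (13.8% and 14.3%). Where no RefSeq ribosomal or short RNA was present, the share overlapped was 0.539% and 0.678% in protein-coding genes and 0.752% and 0.956% in lncRNA genes or pseudogenes.

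The antisense signals that returned at the same place formed 188 positions, for 130 identifiers or pairs of them. Coordinates of peaks are those deposited, whose bounds are uncertain by 1 base. Protein-coding genes held 112 of the 188, beside 71.6% and 71.4% of all antisense peaks in replicates 1 and 2. The lncRNA genes or pseudogenes held 32, the ribosomal units and 18S pseudogenes 16, other short RNAs 4, and 24 positions lay in no RefSeq gene. In 59 both replicates reached 6 tags and in 10 both reached 10 tags. A sense peak faced 43 of the 188 in at least 1 replicate and 16 in both. Over all antisense peaks it did so for 1.41% in replicate 1 and 1.62% in replicate 2. Those shares are per peak and per list, and the share rose with height. So they are not a like measure for the shared positions, which were not matched by height. A RefSeq gene of known strand lay on the strand of the peak at 10 of the 188, beside 2.56% and 2.86% of all antisense peaks. The strand was known for 28864 of 59788 RefSeq genes.

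Of the 12 leading positions, ordered by the smaller height of each, the first 8 were ribosomal. The highest, in the 28S part of RNA45SN3 (chr21:8401050-8401300), had 26.6 tags in replicate 1 and 48.5 in replicate 2. The 5.8S part of RNA45SN1 had 1 at chr21:8439800-8439850 with 11 and 12 tags. After these came ING1, a chromatin reader and candidate tumour suppressor, with 10 and 10.5 tags at chr13:110714800-110714900 and with 9.67 and 12 tags at chr13:110714550-110714700. AFF1, a subunit of the super elongation complex and a frequent KMT2A fusion partner in leukemia, had 10 tags in both replicates at chr4:87006700-87006750. RPS27, a protein of the small ribosomal subunit, closed the 12 with 9 and 10 tags at chr1:153991100-153991150. None of these 4 faced a sense peak at the same position in either replicate. Elsewhere inside the RefSeq genes, the highest sense-strand peaks of replicates 1 and 2 had 4 and 8 tags in ING1 and 7 and 12 in AFF1. In RPS27 they had 5 and 89 tags.

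By its identifier, ING1 had more antisense than sense peaks. Inside the RefSeq gene, 9 peaks of replicate 1 and 12 of replicate 2 lay on the minus strand, and 2 and 1 on the plus strand. So some minus-strand peaks there carry another class or identifier. The 5 antisense peaks of the ING1 identifier in replicate 1 and 8 in replicate 2 lay close together (chr13:110713750-110715150). They stood beside 3 and 1 sense peaks of that identifier and 0 opposite-strand peaks in that span in either list, and 4 positions were shared. By contrast, the antisense peak of RPL13, a protein of the large ribosomal subunit, lay on the same coding sequence as a much higher sense peak in both replicates, 9 tags against 32 in replicate 1 and 13 against 32.8 in replicate 2. In ADA the same was seen, with 8 against 24.5 tags in replicate 1 and, at the same place, 9.5 against 34.5 in replicate 2. ACTB, beta-actin, had 6 and 4 antisense peaks, up to 13 and 9 tags, with 3 shared positions and no sense peak facing any of them. It also had 6 and 5 sense peaks elsewhere. Peaks on the sense strand inside the RefSeq gene reached 19 tags in replicate 1 and 86 in replicate 2. These 3 genes, outside the ranking rule, were chosen after their values were seen.

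Antisense peaks were spread thinly over many hosts. They fell on 11791 identifiers in replicate 1 and 10413 in replicate 2, and the 6877 found in both were 58.3% and 66.0% of these. Over all named identifiers, 50.3% in replicate 1 and 44.3% in replicate 2 had at least 1 antisense peak. The numbers of the replicates had a Spearman rho of 0.22 and a Pearson r of 0.68, as descriptions. Of 15327 identifiers in all, 40.5% had a single antisense peak over both replicates and 3311 (21.6%) had no sense peak in either list. The 11080 that could be named included 9144 protein-coding genes and 1478 lncRNA genes, with a median length of 50.4 kb against 16.2 kb for the named identifiers without an antisense peak. Across the 17007 named identifiers the number of antisense peaks rose with gene length, with a Spearman rho of 0.62 as a description across genes, beside 0.47 for sense peaks. Per length they were denser in short genes, with 86.6 antisense and 557 sense peaks per Mb below 10 kb and 23.0 and 38.0 per Mb from 500 kb, both replicates added.

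The 10 identifiers with the most antisense peaks held 1.49% of them. In 5 genes of 2058 to 2474 kb no antisense peak passed 10 tags. DLG2, a synaptic scaffold, had 35 in replicate 1 and 34 in replicate 2, beside 29 and 20 sense peaks. PTPRD, a receptor tyrosine phosphatase, had 38 and 27, and MACROD2, an ADP-ribose hydrolase, had 34 and 29. RBFOX1, a splicing regulator of neurons, had 39 and 23 and CNTNAP2, a neurexin relative, 35 and 27. None of these 5 had a position shared by the replicates.

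TBC1D5, a regulator of endosomal trafficking, had the most, 59 in replicate 1 and 51 in replicate 2, with 61 and 56 sense peaks. Part of its antisense peaks formed a row on the plus strand outside its RefSeq gene, over BALR6, a long noncoding RNA first described in B-cell leukemia that RefSeq places on that strand. This row (chr3:18066350-18163400) held 23 antisense peaks of replicate 1 and 30 of replicate 2, with 4 and 5 peaks on the other strand and 3 shared positions, of which chr3:18122750-18122850 had 8 tags in each replicate. Those peaks are antisense to the identifier of TBC1D5 and sense to BALR6, so the class of a peak depends on which transcripts the annotation holds.

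The unnamed ENSG00000287117.1 had 49 and 58 antisense peaks and only 4 and 6 sense peaks, and LOC107985855, a lncRNA gene, had 37 and 49 against 3 and 1. ENSG00000280441.3, of the ribosomal units, had 42 and 51 against 42 and 40. The unnamed ENSG00000229140.11 had 32 and 31 against 63 and 61. Ordering by the smaller of the 2 numbers of each identifier gave the same 10.

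Clustering brought the same loci forward. With gaps of up to 10 kb on 1 strand, 30.9% of antisense peaks in replicate 1 and 28.5% in replicate 2 lay in clusters of at least 2, a mean of 29.7% ± 1.74 (SD, n = 2). This share was not taken for other classes of peaks. It therefore does not tell whether antisense peaks lie closer together than others or than their number alone would bring. Clusters of at least 5 peaks numbered 55 and 67, with 1.48% and 2.94% of the peaks. They merge into 101 loci, of which 67 held an antisense peak in both replicates and 20 held at least 5 in both.

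The 2 largest clusters were nearly free of peaks on the other strand and returned in both replicates. The first lay on the plus strand of chromosome 4 against ENSG00000287117.1 (chr4:9568750-9655300), where no RefSeq gene was matched, with 45 antisense peaks in replicate 1 and 56 in replicate 2 and 2 and 3 peaks on the other strand. The second lay on the minus strand of chromosome 2 against LOC107985855 (chr2:16381950-16432550), with 35 and 49 antisense peaks and 2 and 1 on the other strand. They held 8 and 10 shared positions by their hosts' identifiers, and heights stayed low, at most 10 and 15 tags. The BALR6 row and the units RNA45SN1 and RNA45SN3 came next, and the RNA45SN1 locus held more peaks on the other strand than antisense peaks in replicate 1, 27 against 24.

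Other large clusters carried peaks on both strands. BAGE2, a pseudogene of a melanoma antigen gene, had 10 antisense peaks in replicate 1 and 27 in replicate 2, with 19 and 35 on the other strand and no shared position. SLC12A7, a potassium-chloride cotransporter, had 12 and 12, with 13 and 18 on the other strand and 1 shared position. BAGE2 belongs to the 5 largest clusters of replicate 2, and SLC12A7 was chosen after its values were seen.

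Some clusters were present in replicate 2 alone. Of the clusters of at least 10 peaks in replicate 2, 8 held no antisense peak of replicate 1 in their span, and NTRK3, ALK, RET, SDC4, EZR and ROS1 were among the RefSeq genes at these places. The peaks at ROS1 carry an identifier without a name, ENSG00000282218.1, and the identifier named ROS1 has 2 antisense peaks in replicate 1 and 0 in replicate 2. NTRK3, ALK, RET and ROS1 encode receptor tyrosine kinases, and these genes are known from oncogenic kinase fusions of solid tumours, EZR and SDC4 as partners of ROS1. They were noticed after the values were seen. No cluster of at least 10 peaks of replicate 1 was without an antisense peak of replicate 2, but at 5 peaks or more 14 of 55 clusters of replicate 1 and 20 of 67 of replicate 2 were without one of the other. By identifier, 27 had at least 6 antisense peaks in replicate 1 and none in replicate 2, and 10 the reverse.

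In these 8 spans, of 79.5 kb together, replicate 2 had 110 antisense peaks of 5 to 10 tags and 107 peaks on the other strand, and replicate 1 had 0 and 4. The largest, in NTRK3, had 23 antisense peaks within 13.1 kb and 26 on the other strand, 24 of them intronic. ALK had 18 and 10, RET 13 and 12, SDC4 12 and 20, EZR 12 and 7 and ROS1 10 and 5. Over all 8 spans the strands held nearly equal numbers, and 29 of the 110 had a peak at the same position on the other strand. The source of these peaks was not tested. The 110 peaks are 0.475% of the antisense peaks of replicate 2.

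Genes of interest in T-ALL held 54 antisense peaks in replicate 1 and 44 in replicate 2, beside 564 and 693 sense peaks. Of 14 such genes with a named identifier, 12 in replicate 1 (85.7%) and 9 in replicate 2 (64.3%) had at least 1, beside 50.3% and 44.3% of all named identifiers, whose lengths differ from those of the list. RUNX1, a haematopoietic transcription factor, had the most, 27 and 18 antisense peaks of at most 6 and 8 tags, beside 287 and 374 sense peaks. Its identifier spans 1213 kb, of which RefSeq RUNX1 is 262 kb, and only 9 and 4 peaks of at most 5 and 6 tags lay on the antisense strand inside that gene. The 2 positions shared by the replicates lay outside it, 1 at LOC101928269 and 1 in no RefSeq gene. MTOR, a growth kinase, had 4 and 8, DNMT3A, a DNA methyltransferase, 2 and 7, and IGF2BP2 itself 2 and 4. BCL11B, a factor of T cell identity, had 5 in replicate 1 and 0 in replicate 2, and DNM2, a dynamin, 4 and 0. NOTCH1 and MYC had none in either list, beside 48 and 57 and 13 and 11 sense peaks.

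Genes known for an antisense transcript held 18 and 21 antisense peaks. Of 13 with a named identifier, 7 in replicate 1 (53.8%) and 9 in replicate 2 (69.2%) had at least 1. For all named identifiers it was 50.3% and 44.3%, but their lengths differ from those of the list. None of the antisense positions of the list was shared by the replicates. ZEB1, a repressor of epithelial genes, had 4 and 7, KCNQ1, a potassium channel gene whose intron gives rise to an imprinted antisense RNA, 5 and 3, and IGF2R, whose imprinted antisense RNA is AIRN in the mouse, 5 and 2. WT1 had 1 and 3, GATA3 0 and 1, and HIF1A, TUG1 and HOXA11 none. Antisense peaks overlapped 9 microRNA hairpins, all on the opposite strand of the microRNA and none in both replicates, the highest with 8 tags at MIR6805.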

How the data were processed

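Read pairs of 150 bp were mapped by the authors to GRCh38 with TopHat2 (as the submitters' processing notes name them). They kept uniquely mapped reads, and called peaks in each IGF2BP2_IP library against simulated read positions in each gene, removing peaks that met input peaks. The deposited height is a signal in tags, the deposited p-value was used only as a filter, and the total reads per library, the annotation and the way strand was read are not given in the sources used here. Positions were read as half-open, overlap needed 1 bp, and clusters joined same-strand peaks with gaps up to 10 kb. Identifiers were named by position and strand from RefSeq (GRCh38.p14), with a margin of 1000 nt and 80% of coding and UTR peaks inside, so 72.3% of hosts had a symbol. Intervals are 95% Wilson or Newcombe and express counting error alone, because PCR duplicates were not told apart by molecular identifiers. Shares at equal height were set against each other with Fisher's exact test, two-sided, and Benjamini-Hochberg adjustment. Genes were named by fixed rules: the 10 hosts with the most antisense peaks, the 12 highest shared positions, the 5 highest peaks and 5 largest clusters of each replicate, and lists of T-ALL, antisense-partner and cell marker genes. The members and lists were chosen with earlier results of these data known. Overlap functions were tested on simulated data. Python 3.11.15, pandas 2.3.3 and scipy 1.17.1 were used. Alternatives were minimum heights, a p value under 0.001, other overlap and gap rules and each replicate left out, and, chosen after seeing the data, lists without the 45S units or without the 8 spans clustered in replicate 2 alone. Peak sequences outside promoter windows were not analysed here, and values of some single genes are not reported here.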

Additional observations from a re-analysis of the deposited data

How the results depend on the processing

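Both equal-height differences between antisense and intron peaks kept their direction and their side of the threshold under every alternative run. Each run used only the lowest height class left with at least 10 antisense and 10 intron peaks, in replicate 1. Replicate 2 was used in 1 run, for the recurrence difference, and the other classes were not rerun. The ranking of hosts kept at least 9 of its 10 identifiers. The values that follow are means of the replicates unless 1 direction is named. The antisense share of 18.4% was 14.6% at 5 tags or more in both lists, 7.87% at 6, 1.4% at 10, and 5.50% at p values under 0.001, and 16.8% to 19.9% when a replicate was left out. The share of replicate 1 peaks recurring in replicate 2, 0.654%, became 2.41%, 6.89%, 26.8% and 5.68% under these 4 filters, 1.07% when touching peaks counted, 1.44% without regard to strand and, in the other direction, 0.821%. The 190 shared peaks became 109, 60, 11 and 49 under the filters and 311 when touching peaks counted. The opposite-strand share of 1.52% became 2.94% at 6 tags, 17.4% at 10 and 4.07% at p values under 0.001, 1.33% with identical starts and 2.33% when touching peaks counted, and ranged from 1.41% to 1.62% without 1 replicate. The share in clusters, 29.7%, became 19.1%, 13.6%, 58.5% and 15.6% under the filters, 5.62%, 18.2% and 69.4% with gaps of 1, 5 and 50 kb, and 8.51% for clusters of at least 3, and ranged from 28.5% to 30.9% without 1 replicate. The cause of these shifts was not tested. The replicates stood far apart under some filters: the share in clusters was 9.79% in replicate 1 and 28.5% in replicate 2 at 5 tags, 70.7% and 46.2% at 10 and 11.7% and 19.5% at p values under 0.001, and the opposite-strand share was 12.2% and 22.6% at 10 tags and 2.78% and 5.37% at p values under 0.001. Without the 45S units, the recurring share was 0.597% and 173 peaks were shared. Leaving out the 45S units or the 8 spans of replicate 2 moved the other 3 values by less than their SD. No paired analysis was possible because the input libraries that share the replicate numbers were not analysed here. Depth is unknown for both libraries, so heights in tags cannot be set against depth, and no smallest detectable share is given.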
